A study of Mus musculus with 6 samples.

Results

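The solute carrier family Slc25a, the carriers of the inner mitochondrial membrane, was followed through 6 libraries of total mouse liver RNA. Its members were taken by name: every row of the deposited table whose symbol begins with Slc25a followed by a number, which gave 41 of 14499 genes. Relatives listed under other symbols, such as Ucp2, are not among these members. The Arid1a_KO_DDC group held 3 liver libraries labelled Arid1a hepatocyte-specific KO, and the WT_DDC group held 3 liver libraries labelled wild type. All came from mice of C57Bl/6; 129Sv background aged 10 weeks and all had been injured for 2 weeks with DDC, a porphyrinogenic dihydrocollidine, so no uninjured liver served as a baseline. The deletion is labelled as confined to hepatocytes, and the promoter that drove the recombinase is not given in the sources used here. Total liver RNA also holds other cell types, in which Arid1a is not deleted according to the label. Separate mice per library are not stated, and livers, as written below, stands for libraries. The p-values cover only library-to-library spread, of which an unknown part may be technical.

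The inner mitochondrial membrane is closed to most metabolites, and Slc25 carriers exchange nucleotides, phosphate, carboxylates, amino acids, cofactors and iron across it. In liver they feed the urea cycle (ornithine and aspartate), fatty acid synthesis (citrate), fatty acid oxidation (acylcarnitine) and heme synthesis (glycine and iron). DDC gives rise to a porphyrin that blocks ferrochelatase, the last enzyme of heme synthesis, which sits on the matrix side of the same membrane. Arid1a encodes a subunit of the BAF chromatin remodelling complex, and the study asks how its loss in hepatocytes alters the transcriptional answer to injury.

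Levels are FPKM, fragments counted per length of transcript and scaled to the total mapped, so genes can be set side by side. Between 11280 and 11712 genes per library were at 1 FPKM or more, and the absolute number of fragments is unknown. Arid1a itself overlapped between the genotypes at 6.61, 5.01 and 3.81 FPKM in knockout livers, against 7.85, 5.48 and 5.98 FPKM in wild-type livers. That value includes exons outside any deleted stretch and cells that keep the gene, so it checks no label. Replicate 1 of both groups stood apart by its library numbers (L0566 and L0567, against L0602 to L0605) and by the Y-linked gene Ddx3y, at 0.0227 and 0.0527 FPKM there and at 9.27 to 11.3 FPKM in the other libraries. Hepatocyte markers were abundant in every library, with albumin (Alb) between 26590 and 34010 FPKM.

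The family spanned nearly 3 orders of magnitude in injured liver. Of the 41 members, 8 averaged 100 FPKM or more, 13 lay between 10 and 100 FPKM, 18 between 1 and 10 FPKM, and 2 under 1 FPKM. No member was listed at 0 in any library. Slc25a5, the ADP/ATP carrier that supplies the cytosol with mitochondrial ATP, was the most abundant member in every library, with a mean of 509 FPKM. Slc25a39, the glutathione importer, followed at 365 FPKM. Slc25a47, a liver-enriched carrier of less certain substrate, averaged 312.5 FPKM and Slc25a3, the phosphate carrier, 241 FPKM. Slc25a1, the citrate exporter that supplies fatty acid synthesis, averaged 174 FPKM and Slc25a22, a glutamate carrier, 132 FPKM. The dicarboxylate carrier Slc25a10 and the ornithine carrier Slc25a15 averaged 121 and 103.5 FPKM.

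In this order of levels, the ranges of most neighbours overlapped. Across the 6 libraries, this held for 38 of the 40 neighbouring pairs. Compared within each library, Slc25a23 still stood above Slc25a20, and Slc25a33 above Slc25a21, in all 6. Slc25a5 stood above Slc25a39 (lowest value 396 FPKM, against a highest value of 392 FPKM), and Slc25a3 stood above Slc25a1 (lowest 223 FPKM, against a highest value of 191 FPKM). Between 62.2% and 69.0% of the summed FPKM of the family came from its 5 most abundant members. The median member was at 8.91 to 13.7 FPKM per library, against 4.79 to 5.20 FPKM for the median of all genes.

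**Figure D1:**
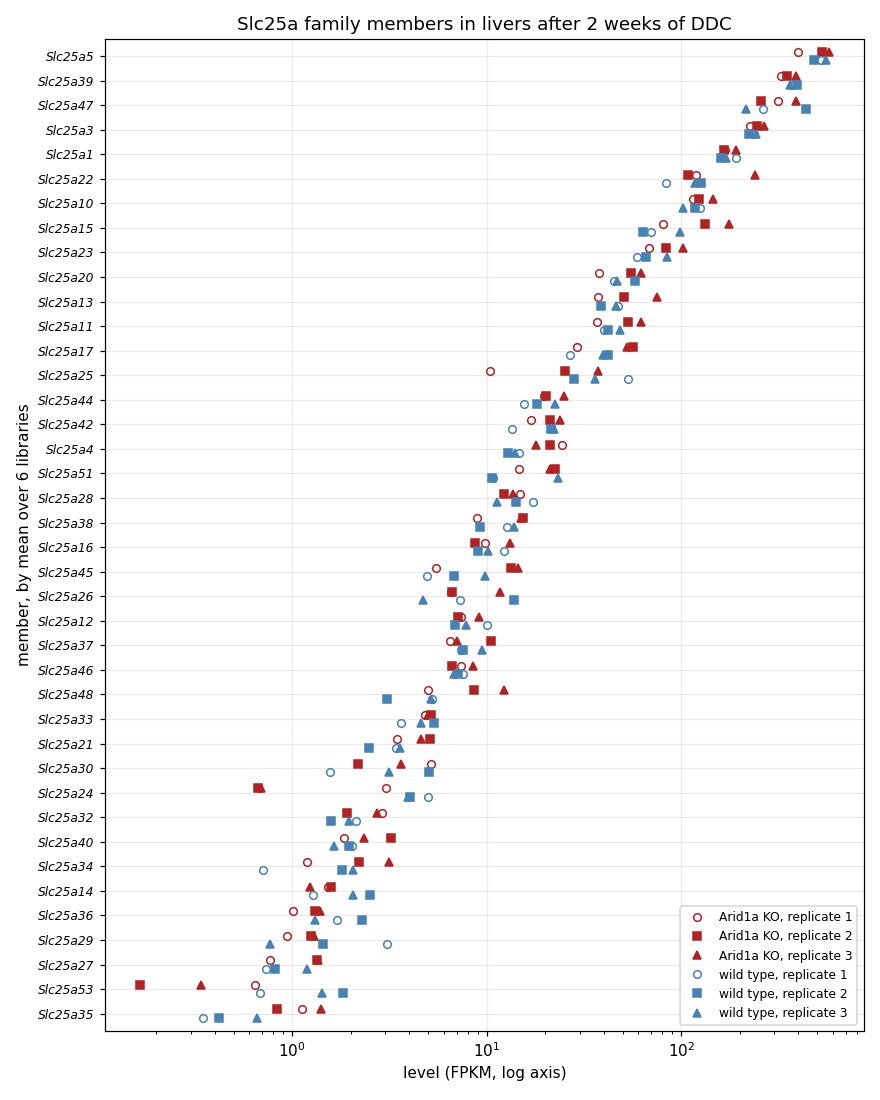
Level of the members described here (FPKM, log axis) in the 3 Arid1a knockout livers (red) and the 3 wild-type livers (blue), ordered by the mean over 6 libraries; each point is a library and open circles are replicate 1. The groups lie on top of each other for most members, from Slc25a5 with a mean of 509 FPKM down to Slc25a35 with 0.797 FPKM.

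No member passed the test of genotype, in either direction. Genes were compared as log2(FPKM + 1) with limma over the 11839 genes that reached 1 FPKM in at least 3 of the 6 libraries, with Benjamini-Hochberg adjustment over all of them and a threshold of 0.05; on this scale, changes of genes at low FPKM are compressed. Of the members, 39 entered the test and 0 were called, against 0.49% of all genes tested (16 higher and 42 lower in knockout livers). At an unadjusted limma p under 0.05, 1 member was higher (Slc25a4) and 1 lower (Slc25a24), which is 2.56% each, against 4.65% and 6.5% of all genes tested. Groups did not overlap for 2 of the 39 (1 higher and 1 lower), or 5.13%, against 16.6% of all genes tested (7.09% higher and 9.56% lower). With 3 libraries on each side the smallest p an exact permutation test allows is 0.1. Adjusted p-values of the members ran from 0.234 to 0.999 in limma. A p that misses the threshold does not show that a level was equal, and the limma 95% confidence intervals below show what sizes remain possible.

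The members' log2 differences were mostly positive, with a median of 0.13 against 0.0034 over all genes tested. A difference above 0 was found for 29 of the 39 tested members and for 50.6% of all genes tested. Under quantile normalization it was found for 27 of 39 members and 53.7% of all genes. With the filter at 5 FPKM it was found for 22 of 28 members and 54.4% of all genes. Leaving out Arid1a_KO_DDC replicate 3 brought the members to 22 of 39 above 0, with a median of 0.03, and all genes to 48.4%. Beyond 0.5 log2 units lay 6 members, or 15.4%, against 13.9% of all genes tested.

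**Figure D2:**
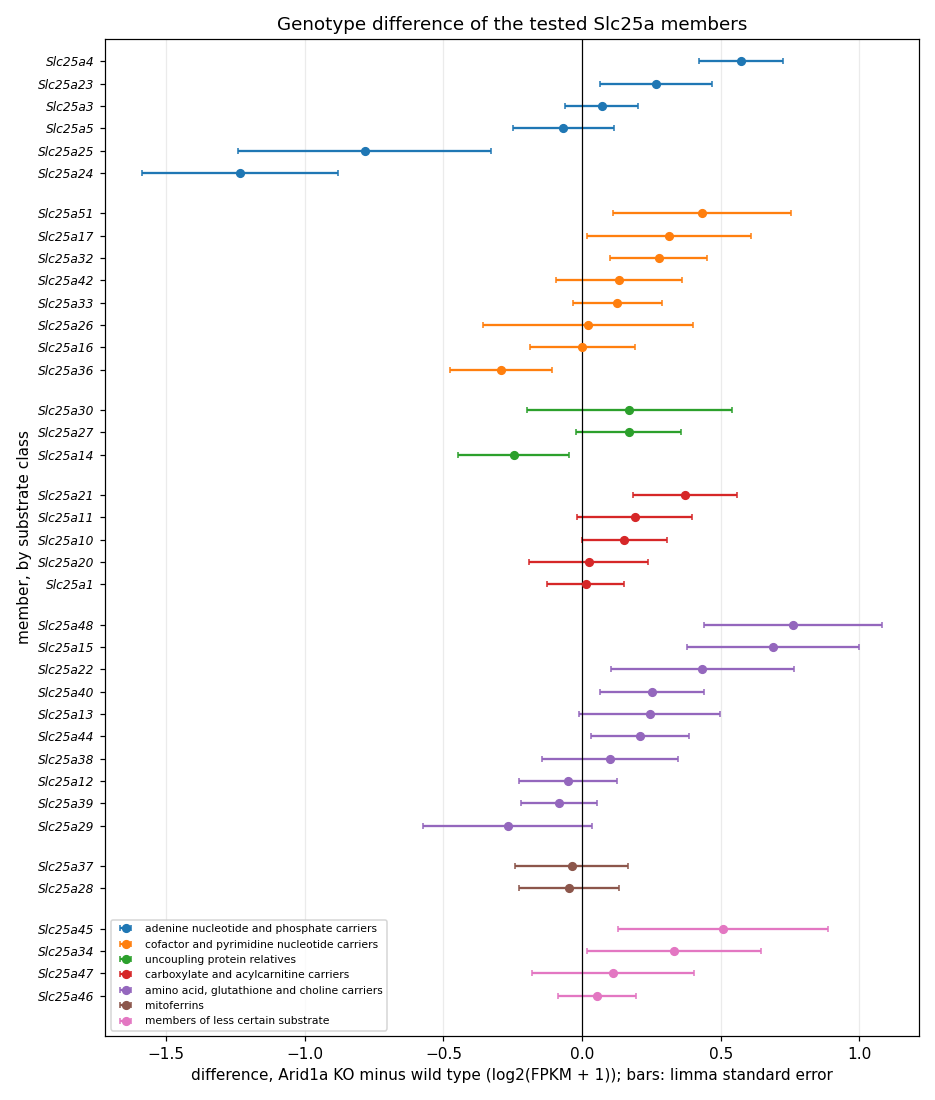
Difference in log2(FPKM + 1) between Arid1a knockout and wild-type livers for the tested members described here, grouped and coloured by substrate class; points are limma estimates and bars are standard errors. Slc25a24 at -1.23 and Slc25a48 at 0.76 mark the ends, and none passed the adjusted threshold.

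The adenine nucleotide and phosphate carriers held both members whose tested groups were apart. Of the 6, 3 had positive and 3 negative differences, 0 were called by limma, and the summed level of the class was 878 ± 138 FPKM in knockout livers and 880.3 ± 62 FPKM in wild-type livers (SD, n = 3 each). Slc25a24 (ENSMUSG00000040322, chromosome 3, 109123149 to 109168457 on GRCm38, plus strand, protein coding) encodes a calcium-regulated carrier that exchanges ATP-Mg for phosphate and so sets the matrix pool of adenine nucleotides. It was at 3.04, 0.668 and 0.694 FPKM in knockout replicates 1, 2 and 3, against 4.99, 4.02 and 3.93 FPKM in wild-type livers. Every knockout library lay below every wild-type library, and knockout replicates 2 and 3 lay far below replicate 1. The mean in knockout livers was 0.340 times that in wild-type livers, with a log2 difference of -1.23 (SE 0.35, 95% interval -2.07 to -0.39, limma adjusted p = 0.266).

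The call of Slc25a24 turned on knockout replicate 1. Without Arid1a_KO_DDC replicate 1 its difference was -1.65 and it passed (limma adjusted p = 0.0318), and it passed in libraries L0602 to L0605 alone (-1.57, adjusted p = 0.0475). Over all 16 alternatives in which it could be fitted the difference stayed between -1.82 and -0.54, with adjusted p-values of 0.0318 to 0.593. At 0.668 to 4.99 FPKM it is among the lowest members, and its size on the log scale depends on the pseudocount: -1.82 at 0.1 and -0.54 at 5. In total liver RNA, fewer cells of a type that expresses a gene and less of its RNA per cell cannot be told apart.

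Marker levels of other liver cell types are given beside Slc25a24; over all genes tested, 0.49% were called (0.355% lower in knockout livers) and 50.6% had a difference above 0. Of 7 tested macrophage markers all 7 had negative differences (0 called by limma), and their summed level over 8 markers was 316 to 482 FPKM in knockout livers, against 521 to 615 FPKM in wild-type livers. All 7 tested sinusoidal endothelial markers were negative too (0 called), with sums of 75.0, 41.7 and 28.9 FPKM in knockout replicates 1, 2 and 3, against 50.7 to 81.7 FPKM in wild-type livers. Stellate and fibroblast markers summed to 78.0 to 110 FPKM in knockout livers, against 103 to 115 FPKM in wild-type livers, with 7 of 9 negative. In the T and NK cell list, all 4 tested markers were negative (0 called), with sums of 2.25 to 11.96 FPKM in knockout livers, against 13.7 to 21.4 FPKM in wild-type livers, and Trac was listed at 0 in knockout replicate 3. B and plasma cell markers (5 of 5 negative, 0 called) summed to 20.3, 7688 and 24.0 FPKM in knockout replicates 1, 2 and 3, against 1532 to 5521 FPKM in wild-type livers. Most of that sum was Igkc, at 17.6, 7538 and 22.5 FPKM in knockout replicates 1, 2 and 3. Slc25a24 was at 3.04, 0.668 and 0.694 FPKM in the same 3 libraries. Of 7 biliary markers 6 were negative and 2 fell (Cldn4 and Krt23, limma adjusted p = 0.0386 and 0.0447). Cldn4 averaged 2.34 FPKM in knockout livers, against 8.07 FPKM in wild-type livers, and Krt23 0.991 against 7.28 FPKM. The biliary sums were 209 to 421 FPKM (mean 290.4) in knockout livers, against 131 to 397 FPKM (mean 278.3) in wild-type livers. Its most abundant gene averaged 259.4 FPKM, so the sum mostly follows that gene. No other marker of these lists was listed at 0, and the part of these cells in the level of Slc25a24 was not tested.

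Slc25a4 (ENSMUSG00000031633, chromosome 8, 46206797 to 46211284, minus strand, protein coding) encodes the ADP/ATP carrier that predominates in heart and skeletal muscle and is the minor form in liver. It was at 24.4, 21.1 and 17.95 FPKM in knockout livers, against 14.6, 12.9 and 13.9 FPKM in wild-type livers. The groups did not overlap, and the lowest knockout library exceeded the highest wild-type library by a few FPKM. The log2 difference was 0.57 (SE 0.15, 95% interval 0.21 to 0.93, adjusted p = 0.234), and it stayed between 0.47 and 0.68 over 17 alternatives with adjusted p-values of 0.118 to 0.527. Slc25a5, its major paralog in liver (ENSMUSG00000016319, chromosome X, 36795651 to 36798807, plus strand), was at 396, 529.7 and 575 FPKM in knockout livers, against 524, 479 and 553 FPKM in wild-type livers. Its groups overlapped throughout, with a log2 difference of -0.07 (SE 0.18, 95% interval -0.50 to 0.37, adjusted p = 0.92). The level of Slc25a5 is uncertain, since 46.6% of the 50-base stretches of its longest coding transcript recur exactly in 9 other annotated genes, pseudogenes such as Slc25a5-ps among them. For Slc25a4 and Slc25a24 that share was 0%.

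The regions before the start sites of these 3 genes are shown because they belong to the members with separated groups and to the abundant paralog whose groups overlapped. Each is the 250 bases before the RefSeq start on GRCm38.p6, in the sense of the gene: chr3:109122899-109123148 (plus strand) for Slc25a24, chr8:46211063-46211312 (minus strand) for Slc25a4 and chrX:36795347-36795596 (plus strand) for Slc25a5. Capitals mark matches on either strand to the TATA box TATAAA, the CCAAT box CCAAT, the GC box GGGCGG, the E-box CACGTG, the nuclear receptor half-site AGGTCA, the TEAD core GGAATG and the ETS core CCGGAA.
Slc25a24: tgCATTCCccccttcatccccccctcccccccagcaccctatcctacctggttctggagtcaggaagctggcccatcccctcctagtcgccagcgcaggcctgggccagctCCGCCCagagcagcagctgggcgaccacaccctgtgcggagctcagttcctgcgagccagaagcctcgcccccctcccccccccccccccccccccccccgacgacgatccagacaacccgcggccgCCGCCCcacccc
Slc25a4: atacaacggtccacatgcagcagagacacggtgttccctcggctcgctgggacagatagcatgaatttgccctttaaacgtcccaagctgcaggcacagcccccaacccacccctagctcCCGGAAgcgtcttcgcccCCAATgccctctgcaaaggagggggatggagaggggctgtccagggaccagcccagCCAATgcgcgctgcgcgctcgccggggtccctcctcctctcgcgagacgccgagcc
Slc25a5: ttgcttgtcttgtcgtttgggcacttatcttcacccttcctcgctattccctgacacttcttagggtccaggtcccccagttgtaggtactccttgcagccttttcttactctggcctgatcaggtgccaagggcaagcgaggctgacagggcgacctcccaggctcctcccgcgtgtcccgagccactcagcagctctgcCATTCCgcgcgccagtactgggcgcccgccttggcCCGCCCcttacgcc
The Slc25a24 window held GC boxes at -139 and -12 and a TEAD core match at -248, counted from the base before the start (-1) to the leftmost base of the match. The Slc25a4 window held CCAAT boxes at -112 and -56 and an ETS core at -130. The Slc25a5 window held a GC box at -14 and a TEAD core match at -49. RefSeq and GENCODE starts differed for both. The GENCODE start of Slc25a4, 46211284, lies inside its window, so these matches fall within the gene as GENCODE places it. For Slc25a5 the GENCODE start, 36795651, lies beyond the end of its window. For Slc25a24 the GENCODE start directly follows its window. No matches overlapped in these windows, and none had a TATA box, E-box or half-site.

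The RefSeq table held 42 start-site windows for 32 of the 41 member symbols, several genes having more than a single start. Some windows of the same gene overlap, so the same site can be counted again. An E-box and a GC box of Slc25a14 were counted this way, as were a CCAAT box, a GC box and a TEAD core of Slc25a23. The shares below therefore count windows, not separate sites. A GC box was found in 31 of these 42 windows, or 73.8%, against 32.7% of all 32851 windows. A CCAAT box was found in 50% of member windows, against 33.8% of all, and an ETS core in 21.4%, against 12.03%. An E-box was found in 16.7% of member windows, against 6.02% of all, and a TEAD core in 19.0%, against 12.6%. A half-site was found in 9.52%, against 14.02%, and a TATA box in 2.38%, against 12.4%. The member windows also had a higher GC content, with a median of 57.4% against 52.4%. These matches are letters in a window, not binding sites.

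The other carriers of this class were at overlapping levels. Slc25a25, a calcium-regulated ATP-Mg carrier like Slc25a24, was at 10.4, 25.3 and 37.3 FPKM in knockout livers, against 53.0, 28.1 and 36.1 FPKM in wild-type livers. Replicate 1 held both extremes, the lowest value in the knockout and the highest in the wild type. The log2 difference of Slc25a25 was -0.78 (SE 0.46, 95% interval -1.87 to 0.30, adjusted p = 0.589), and in libraries L0602 to L0605 alone it was -0.051. Slc25a23, the remaining calcium-regulated ATP-Mg carrier, ranged over 68.2 to 102 FPKM in knockout livers, against 59.5 to 84.1 FPKM in wild-type livers. Slc25a3 ranged over 226 to 268 FPKM in knockout livers, against 223 to 243 FPKM in wild-type livers.

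**Figure D3:**
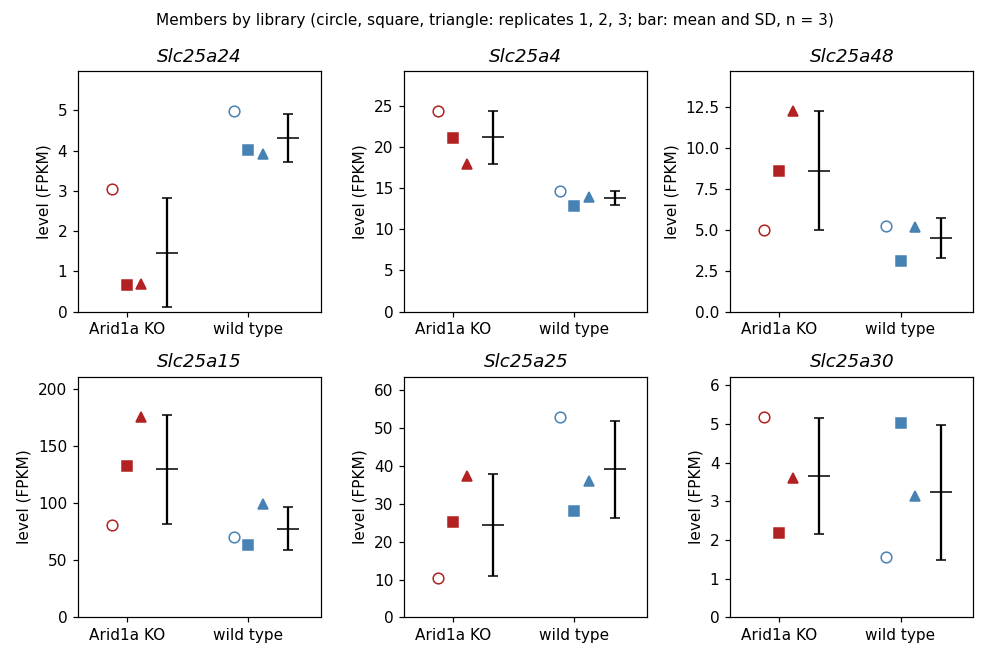
Level in FPKM of 6 members in each Arid1a knockout liver (red, left) and each wild-type liver (blue, right); circles, squares and triangles are replicates 1, 2 and 3, and black bars are the mean and SD of 3 libraries. Slc25a24 and Slc25a4 have groups that do not overlap, while Slc25a48, Slc25a15, Slc25a25 and Slc25a30 overlap and spread widely between replicates.

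Carriers of amino acids, glutathione and choline included the largest positive differences of the family, without a call. Of 10 tested members, 7 had positive and 3 negative differences, with a median of 0.23 and 0 called by limma. Slc25a48, a choline importer, was at 4.98, 8.58 and 12.3 FPKM in knockout livers, against 5.25, 3.08 and 5.17 FPKM in wild-type livers. Knockout replicate 1 lay within the wild-type range and replicates 2 and 3 above it, with a log2 difference of 0.76 (SE 0.32, adjusted p = 0.45). Slc25a15, which brings ornithine into the matrix for the urea cycle, was at 80.7, 132 and 175 FPKM in knockout livers, against 69.9, 63.7 and 99.0 FPKM in wild-type livers. Knockout replicates 2 and 3 lay above all wild-type libraries, and the difference was 0.69 (SE 0.31, 95% interval -0.05 to 1.42, adjusted p = 0.48). Slc25a13, citrin, the aspartate-glutamate carrier of liver, was at 37.3, 50.5 and 74.6 FPKM in knockout livers, against 47.3, 38.5 and 45.9 FPKM in wild-type livers. Its knockout libraries surrounded the wild-type range (difference 0.24, SE 0.25, adjusted p = 0.769). Slc25a12, the aspartate-glutamate carrier best known from brain and muscle, was lower in level, at 7.12 to 9.10 FPKM in knockout livers, against 6.88 to 10.0 FPKM in wild-type livers.

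Both glutathione importers were measured, at very different levels. Slc25a39 was at 324, 351 and 389.8 FPKM in knockout livers, against 372, 392 and 362 FPKM in wild-type livers (difference -0.08, SE 0.14, 95% interval -0.41 to 0.25, adjusted p = 0.862). Slc25a40, its paralog, was at 1.84, 3.21 and 2.34 FPKM in knockout livers, against 2.04, 1.95 and 1.64 FPKM in wild-type livers (difference 0.25, SE 0.19, adjusted p = 0.673). The groups overlapped for both. Slc25a22 ranged over 108 to 240.1 FPKM in knockout livers, with replicate 3 alone above 119 FPKM, against 83.5 to 126 FPKM in wild-type livers. Slc25a29, a carrier of basic amino acids, ranged over 0.939 to 1.30 FPKM in knockout livers, against 0.767 to 3.05 FPKM in wild-type livers. Slc25a44, a carrier of branched-chain amino acids, ranged over 19.7 to 24.9 FPKM in knockout livers, against 15.5 to 22.5 FPKM in wild-type livers.

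The carriers that serve heme synthesis showed no separation between genotypes. Slc25a38, which imports glycine for the first step of the pathway, was at 8.91, 15.3 and 14.9 FPKM in knockout livers, against 12.7, 9.27 and 13.8 FPKM in wild-type livers. The groups overlapped fully (difference 0.10, SE 0.24, 95% interval -0.48 to 0.68, adjusted p = 0.911). Slc25a28, mitoferrin 2, the iron importer of most tissues, was at 14.8, 12.2 and 13.7 FPKM in knockout livers, against 17.2, 14.2 and 11.3 FPKM in wild-type livers. Slc25a37, mitoferrin 1, the iron importer of erythroid cells, was at 6.5, 10.5 and 6.99 FPKM in knockout livers, against 7.35, 7.51 and 9.47 FPKM in wild-type livers. Knockout and wild-type libraries were interleaved for both mitoferrins, with differences of -0.05 (95% interval -0.47 to 0.38) and -0.04 (95% interval -0.52 to 0.45) and adjusted p-values of 0.944 and 0.963. Erythroid markers, given here beside Slc25a37, had positive differences in 4 of 4 tested genes (0 called by limma), with sums of 338 to 536 FPKM in knockout livers, against 241 to 308 FPKM in wild-type livers. Hbb-bt was listed at 0 in knockout replicate 3 and in wild-type replicate 1.

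Among the carboxylate and acylcarnitine carriers all 5 differences were positive, the largest being 0.37, and 0 were called by limma; under quantile normalization 3 were positive, Slc25a1 and Slc25a20 turning to -0.05 and -0.01. Slc25a1 was at 168, 166 and 191 FPKM in knockout livers, against 191, 161 and 169 FPKM in wild-type livers. Its groups overlapped, and its interval was among the narrowest of the family (difference 0.01, SE 0.14, 95% interval -0.32 to 0.34, adjusted p = 0.98). Slc25a20, which brings acylcarnitines in for fatty acid oxidation, was at 37.6, 55.3 and 61.8 FPKM in knockout livers, against 45.0, 58.1 and 46.8 FPKM in wild-type livers (difference 0.02, SE 0.21, adjusted p = 0.978). Slc25a21, the oxodicarboxylate carrier used in lysine and tryptophan breakdown, was at 3.46, 5.11 and 4.57 FPKM in knockout livers, against 3.41, 2.48 and 3.57 FPKM in wild-type livers. Its knockout replicate 1 lay within the wild-type range (difference 0.37, SE 0.19, 95% interval -0.07 to 0.81, adjusted p = 0.519). Slc25a10 ranged over 115 to 145 FPKM in knockout livers, against 102 to 125 FPKM in wild-type livers, and the oxoglutarate-malate carrier Slc25a11 over 37.1 to 61.7 FPKM, against 40.1 to 48.6 FPKM in wild-type livers.

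Of the 9 cofactor and pyrimidine nucleotide carriers, 8 differences were positive and 1 was negative (median 0.13), and limma called 0. Slc25a17, a carrier of the peroxisomal membrane for coenzyme A and related nucleotides, was the most abundant of them, at 29.0, 56.3 and 52.8 FPKM in knockout livers, against 26.8, 41.8 and 39.6 FPKM in wild-type livers. Replicate 1 was the lowest library within each genotype (difference 0.31, SE 0.29, adjusted p = 0.74).

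Slc25a36 and Slc25a32 stood at the low end of this class. Slc25a36, a pyrimidine nucleotide carrier, was at 1.01, 1.30 and 1.39 FPKM in knockout livers, against 1.70, 2.27 and 1.31 FPKM in wild-type livers (difference -0.29, SE 0.18, adjusted p = 0.613). Slc25a32, which carries folate or flavin cofactors, was at 2.91, 1.92 and 2.74 FPKM in knockout livers, against 2.12, 1.59 and 1.97 FPKM in wild-type livers (difference 0.28, SE 0.18, adjusted p = 0.614). Both pairs of groups overlapped. Others were Slc25a51 for NAD, Slc25a42 and Slc25a16 for coenzyme A, Slc25a26 for S-adenosylmethionine and Slc25a33 for pyrimidine nucleotides, with differences of 0.43, 0.13, 0.00, 0.02 and 0.13. Slc25a26 spread widely within wild type, at 7.27, 13.8 and 4.68 FPKM.

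The 3 relatives of the uncoupling proteins were weakly expressed. Slc25a30 was at 5.19, 2.18 and 3.61 FPKM in knockout livers, against 1.55, 5.03 and 3.13 FPKM in wild-type livers. Replicate 1 and replicate 2 ordered the genotypes in opposite ways (difference 0.17, SE 0.37, adjusted p = 0.898). Slc25a14 ranged over 1.23 to 1.59 FPKM in knockout livers, against 1.27 to 2.52 FPKM in wild-type livers, and Slc25a27 over 0.765 to 1.35 FPKM in knockout livers, against 0.734 to 1.19 FPKM in wild-type livers. Slc25a47 was at 314, 257 and 388 FPKM in knockout livers, against 262, 437 and 216 FPKM in wild-type livers. Its wild-type libraries spanned the whole knockout range (difference 0.11, SE 0.29, 95% interval -0.58 to 0.80, adjusted p = 0.917).

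The remaining members are of less certain substrate or act at the outer membrane. Slc25a45 and Slc25a34 had differences of 0.51 and 0.33, and Slc25a46, an outer membrane protein that acts in mitochondrial fusion and fission, of 0.05. Slc25a35 and Slc25a53 did not reach 1 FPKM in 3 libraries and were not tested, and they are described here after their values were seen. Slc25a35 was at 1.12, 0.832 and 1.40 FPKM in knockout livers, against 0.347, 0.420 and 0.659 FPKM in wild-type livers. Slc25a53 was at 0.646, 0.164 and 0.340 FPKM in knockout livers, against 0.680, 1.82 and 1.42 FPKM in wild-type livers. The groups did not overlap for either, though for Slc25a53 the gap was only between 0.646 and 0.680 FPKM. The gene Rangrf lies on the opposite strand over Slc25a35, and 25.8% of the 50-base stretches of its longest coding transcript recur in other genes, so without stated strand its reads cannot be assigned.

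Knockout replicate 3 carried the highest level of more members than any other library. It was the highest of the 6 libraries for 19 of the 39 tested members, or 48.7%, against 20.6% of all genes tested. That background was not matched for level, and 28 of the 41 members lay above the median level of all genes. Knockout replicate 3 also had the lowest median of all genes, at 4.79 FPKM, against 5.01 to 5.20 FPKM in the other 5. It had the fewest genes at 1 FPKM or more, 11280, against 11657 to 11712. The part of this in the family's levels was not tested. Wild-type replicate 1, which had a like share of all genes at 20.8%, was the highest library for 5 of the 39. The summed family level was 2992 FPKM in knockout replicate 3, against 2144 to 2451 FPKM in the other 5 libraries; by group it was 2144, 2445 and 2992 FPKM in knockout livers, against 2306, 2451 and 2357 FPKM in wild-type livers. Slc25a22, Slc25a15, Slc25a13 and Slc25a48 were the members in which this was plainest. The summed hepatocyte markers, most of which was Alb, were also highest in knockout replicate 3, at 58760 FPKM, against 44410 to 49060 FPKM in the other 5. Alb itself was at 34010 FPKM there and at 33050 FPKM in knockout replicate 1. Apoa1 and Ttr were highest there too, but Cyp2e1 and Cps1 were not. The summed biliary markers were also highest there, at 421 FPKM, against 131 to 397 FPKM in the other 5. The summed macrophage, stellate and sinusoidal endothelial markers were lowest there, at 316, 78.0 and 28.9 FPKM. The part of cell composition in the family's levels was not tested.

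**Figure D4:**
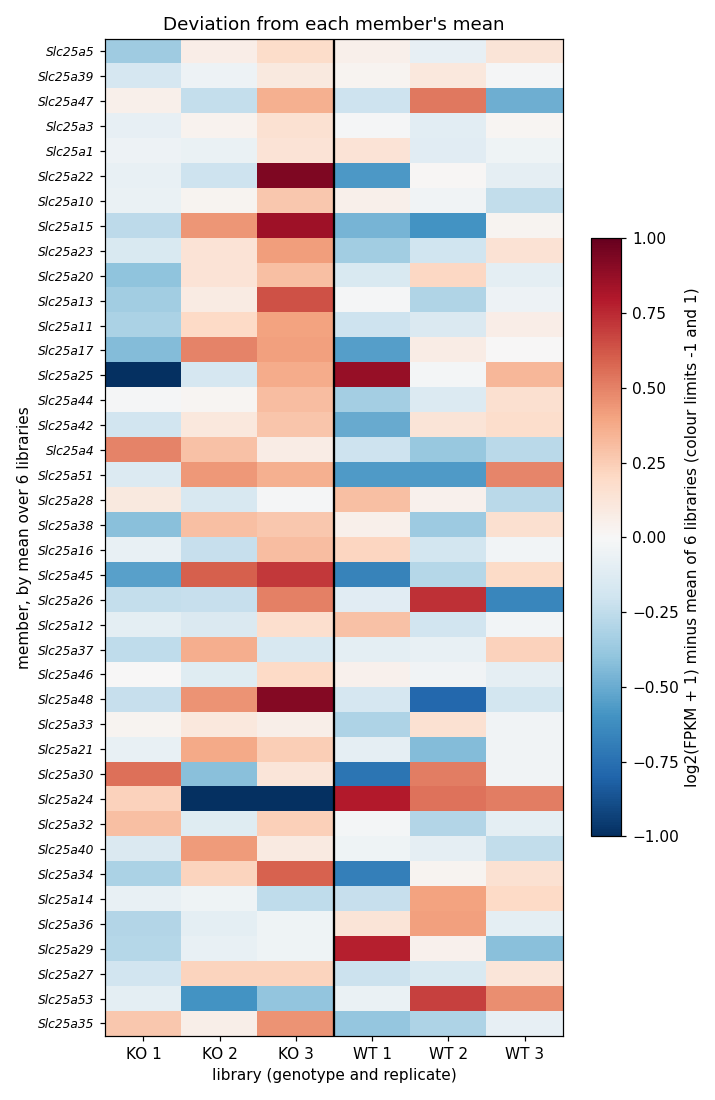
Deviation of each member described here in each library from its own mean over the 6 libraries, in log2(FPKM + 1) (red above, blue below, colours end at -1 and 1), with the 3 knockout livers on the left and the 3 wild-type livers on the right of the line. The column of knockout replicate 3 is red for most members, in which it is the highest library for 19 of 39 tested members, and the row of Slc25a24 is blue in knockout replicates 2 and 3.

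The contrast of library numbers was balanced over genotype and could be read apart from it. It could not be read apart from Ddx3y, which was near 0 in the same libraries (L0566 and L0567). A library-number difference and a difference in the sex of the mice therefore cannot be told apart here. With genotype in the fit, 30 of 39 members were lower in replicate 1 of both groups (L0566 and L0567) than in the other libraries, against 55.1% of all genes tested, with a median of -0.23 against -0.04. By limma 0 members passed the adjusted threshold, against 0.127% of all genes tested (0.0422% higher and 0.0845% lower in replicate 1), and 8 had an unadjusted p under 0.05, or 20.5%, against 21.3% of all genes tested. The smallest adjusted p among the members, 0.0949, was that of Slc25a17. The change of the knockout difference between the library number sets was tested as an interaction, which rests on 2 residual degrees of freedom and on 1 library per genotype in the L0566 and L0567 set. By limma 0 of 11839 genes passed (1072 at an unadjusted p under 0.05), and 4 of 39 members had an unadjusted p under 0.05, against 9.06% of all genes tested. Those 4 were Slc25a25 at -2.20, Slc25a24 at 0.997, Slc25a30 at 1.66 and Slc25a29 at -1.19 log2 units, with adjusted p-values of 0.413, 0.471, 0.507 and 0.511.

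Genes that work beside the carriers, or are related to them under other symbols (such as Ucp2 and Mtch1), were taken from lists of general knowledge. No member of the 8 lists that follow passed the adjusted threshold in limma, against 0.49% of all genes tested. A list of other mitochondrial membrane transporters, their regulators and relatives of the carriers had a median log2 difference of -0.03 over 20 tested genes (0.01 under quantile normalization). Ucp2, an uncoupling protein abundant in macrophages, was at 39.3, 34.0 and 26.1 FPKM in knockout livers, against 60.2, 58.5 and 50.5 FPKM in wild-type livers, with groups apart (difference -0.76, SE 0.18, adjusted p = 0.177). Micu2, a regulator of the calcium uniporter, and Mtch1, an outer membrane relative of the carriers, also had groups apart, with differences of -0.39 and -0.26 (adjusted p = 0.315 and 0.506), making 3 of 20 lower and apart, against 9.56% of all genes tested. Outer membrane channels and import components had positive differences in 17 of 17 tested genes, with a median of 0.22 and 5 genes whose groups were apart, all higher; over all genes tested, 50.6% were positive and 7.09% were apart and higher. Tomm40, the import channel, was at 33.2, 44.9 and 42.9 FPKM in knockout livers, against 31.7, 27.97 and 30.8 FPKM in wild-type livers (difference 0.40, SE 0.16, adjusted p = 0.419). Timm17a and Timm50 of the inner membrane translocase had differences of 0.43 and 0.32 (adjusted p = 0.411 and 0.474).

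Genes of general mitochondrial content had positive differences in 12 of 13 tested genes (9 under quantile normalization), with a median of 0.09. Citrate synthase (Cs), a matrix enzyme often used as a gauge of mitochondrial mass, was at 64.0, 60.7 and 58.3 FPKM in knockout livers, against 51.1, 52.2 and 53.1 FPKM in wild-type livers (difference 0.22, SE 0.12, adjusted p = 0.545). Hspd1, the matrix chaperonin, and Tomm20, an import receptor, had differences of 0.34 and 0.29 (adjusted p = 0.423 and 0.487), also with groups apart.

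The enzymes that meet the carriers' substrates were as follows. For the malate-aspartate shuttle served by Slc25a13 and Slc25a11, Mdh2, Got2 and Got1 had differences of -0.24, 0.22 and -0.45 (adjusted p = 0.634, 0.654 and 0.666). For the urea cycle served by Slc25a15 and Slc25a13, 5 of 6 enzymes were positive (4 under quantile normalization) with a median of 0.14, and Cps1, Otc and Nags had differences of -0.36, 0.23 and 0.15 (adjusted p = 0.61, 0.71 and 0.872). For the cytosolic use of citrate exported by Slc25a1, the carboxylases Acacb and Acaca had differences of 0.68 and -0.40 and malic enzyme Me1 of 0.40 (adjusted p = 0.296, 0.395 and 0.477). For the carnitine shuttle served by Slc25a20, Slc22a5, Cpt1a and Crat had differences of 0.50, 0.35 and -0.08 (adjusted p = 0.61, 0.673 and 0.919).

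For heme synthesis and iron-sulfur clusters, served by Slc25a38, Slc25a28 and Slc25a37, 11 of 13 genes were positive (10 under quantile normalization) with a median of 0.19. Alas2, the erythroid enzyme of the first step, was at 33.2, 102 and 103 FPKM in knockout livers, against 4.29, 29.4 and 16.1 FPKM in wild-type livers, with groups apart and a wide spread within each (difference 2.35, SE 0.71, adjusted p = 0.285). Ppox, the enzyme before ferrochelatase, was at 12.4, 15.6 and 13.5 FPKM in knockout livers, against 10.5, 9.77 and 8.56 FPKM in wild-type livers (difference 0.48, SE 0.15, adjusted p = 0.296).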

How the data were processed

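RNA-seq of total liver RNA from 6 mouse libraries was analysed from gene-level FPKM, which the authors deposited on a log2 scale. The submitters' processing notes name TopHat2 2.0.6, Cufflinks, mm10 and GRCm38, with no roles; annotation and counting strand: not given in the sources used here. A deposited log2 value of -10 is an FPKM of 0 plus an offset of 0.000977, and that offset was removed throughout. FPKM are not counts, so limma 3.58.1 in R 4.3.3 was run on log2(FPKM + 1) with a trend and Benjamini-Hochberg adjustment, and genes needed 1 FPKM in at least 3 libraries. Errors are limma SE or SD over 3 libraries. The fit was tested on simulated data, in which it called 45 of 100 changes of 1 log2 unit and 95 of 100 changes of 2 log2 units. Of its 143 calls, 3 were genes left unchanged. The changed genes were drawn from those above a minimum level, so genes at low FPKM were not covered.

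The members and the lists were chosen with earlier results of these data known. Values per library are given for the 10 members with the smallest p, the highest member of each class and 10 names chosen for their roles (Slc25a1, Slc25a13, Slc25a15, Slc25a20, Slc25a25, Slc25a28, Slc25a37, Slc25a38, Slc25a39 and Slc25a47); of other lists, up to 3 genes with the smallest p. A member and a listed gene that the rule names are not reported here, though counts over the family, classes and lists include them. Classes follow the substrates known for each carrier. Slc25a2, Slc25a18, Slc25a31, Slc25a41, Slc25a43, Slc25a52 and Slc25a54 are not analysed here. Positions are from GENCODE M21 (14453 of 14499 identifiers found) and start-site windows from RefSeq. Alternatives changed the pseudocount, filter, scaling, moderation, design or libraries.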

Additional observations from a re-analysis of the deposited data

How the results depend on the processing

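Across 17 alternatives, 0 members were called higher in any, and 1 was called lower (Slc25a24) in libraries L0602 to L0605 alone and without Arid1a_KO_DDC replicate 1; leaving out each library gave 0 to 1 lower. The median member difference, 0.132, ran from 0.0349 to 0.222 with a library left out. Counts over all genes, 16 higher and 42 lower, were 5 and 7 with no filter, and 33 higher with a term for library numbers and 26 higher in L0602 to L0605 alone. Leaving out a library gave 0 to 30 higher and 0 to 40 lower: 30 and 37 without Arid1a_KO_DDC replicate 1, 6 and 40 without replicate 2, 0 and 0 without replicate 3, 9 and 26 without WT_DDC replicate 1, 0 and 6 without replicate 2, and 0 and 2 without replicate 3 (391 and 527 at an unadjusted limma p under 0.05 without Arid1a_KO_DDC replicate 3). Each such fit has fewer libraries, and otherwise the cause was not tested.

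With the replicate number as a block, limma called 0 genes higher and 0 lower (776 and 942 at an unadjusted p under 0.05), members included. The numbers did not pair the samples throughout: deviations of same-numbered libraries correlated at 0.346, 0.133 and 0.0212. Replicate 1 of each group correlated best with the other replicate 1. Knockout replicate 2 correlated better with wild-type replicate 3, at 0.26, than with its own number.

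Of 351 values of the 21 members the naming rule takes, under alternatives, 322 kept their direction and side of the threshold, 2 (Slc25a24) newly passed, and 27 changed sign, the largest of these being 0.383 in size. With a library left out, Slc25a1 ran from -0.0517 to 0.0848, Slc25a13 from -0.0115 to 0.479, Slc25a20 from -0.12 to 0.23, Slc25a28 from -0.193 to 0.0909, Slc25a30 from -0.152 to 0.469, Slc25a37 from -0.227 to 0.0809, Slc25a38 from -0.0561 to 0.334, Slc25a47 from -0.104 to 0.402 and Slc25a5 from -0.176 to 0.0919. Under quantile normalization Slc25a1 was at -0.0472 and Slc25a20 at -0.0141. In L0602 to L0605 alone Slc25a28 was at 0.0305, Slc25a30 at -0.383, Slc25a37 at 0.0223 and Slc25a5 at 0.101. Slc25a21, Slc25a24, Slc25a30, Slc25a32, Slc25a36 and Slc25a40 gave no value with the filter at 5 FPKM.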
